A study of Mus musculus with 6 samples.

Results

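The AP-1, Egr and Myc immediate early genes followed here are Fos, Fosb, Fosl1, Jun, Junb, Jund, Egr1, Egr2, Myc and Ier3. They were picked by gene name from the probes of an Agilent mouse array hybridised with total RNA from liver. The array lists Jund under its older name Jund1, and its probe was found by accession. These 10 genes, of 27670 gene names on the array, are read by 13 probes in 49 spots.

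The mice were male C57BL/6J, an inbred laboratory strain, and were 8 weeks old when put on a diet and 20 weeks old, after 12 weeks of it, when liver was taken. The CFD diet contained no choline and no folic acid, with methionine reduced to 0.17%. Control mice ate the same L-amino acid-defined, iron-supplemented base with methionine at 0.4%, choline bitartrate at 0.3% and folic acid at 2 mg/kg. Each diet has 3 arrays of 1 dye (Cy3), so the extra iron and the amino acid base are common to both groups. The labels do not say that each array is a separate mouse, so the p-values reflect how far these samples spread, and that spread can be technical in part.

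Immediate early genes are transcribed within minutes of a stimulus from factors already present in the cell, without new protein synthesis. FOS and JUN family proteins pair through leucine zippers into AP-1 dimers, EGR proteins bind GC-rich sites through zinc fingers, and MYC pairs with MAX to drive growth and ribosome genes. In liver these genes are known for their induction after partial hepatectomy, tissue injury and inflammatory signals.

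Signals are given as the processed signal, which the scanner software has already corrected for background, in percent of the 75th percentile of its own array. Such a scaled signal can be compared between arrays for 1 probe, but not between probes. A log2 fold change is CFD diet over control, with its SE from a limma fit across 15909 genes, and a gene is called when its Benjamini-Hochberg adjusted p is below 0.05. A probe entered the fit if, in at least 1 diet, all 3 arrays had it flagged by the software as well above background. All 10 genes entered, of which Fos, Fosb, Fosl1 and Egr2 did so through the CFD diet arrays alone, so that their being tested depended on signal in that group.

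In CFD diet livers 8 of the 10 genes rose, none fell (0 by limma, and 0 at an unadjusted p under 0.05), and Fosb and Jund were not called. The 3 CFD diet values of those 8 all exceeded the 3 control values, as they did for 28.3% of all tested genes, while 34.6% had them all below. Of all tested genes, 23.7% were called higher and 27.4% lower. Rises of at least 4-fold were fitted for 7 of the 10 genes, against 6.58% of all tested genes. For Fosl1, however, only a lower bound could be estimated. Under normexp, an alternative background correction that adds a constant offset to all signals, 2 genes (Egr1 and Egr2) stayed at 4-fold or more, and on scaling to the array median 5 did. The largest fitted change was that of Egr2, at 35.2-fold, and those of Ier3 and Fos were 12.1-fold and 9.17-fold. Below Egr2 the order of the genes depended on the background correction. Fos was well above background on 1 of 3 control arrays, and its log2 change under normexp was 0.93, against 1.85 for Ier3 and 2.02 for Egr1. The median log2 fold change of the 10 genes was 2.31, or 2.08 with Fosl1 at its bound, and that of all tested genes was -0.11. In whole liver, more cells of a type that holds an RNA and more of that RNA per cell cannot be told apart.

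**Figure D1:**
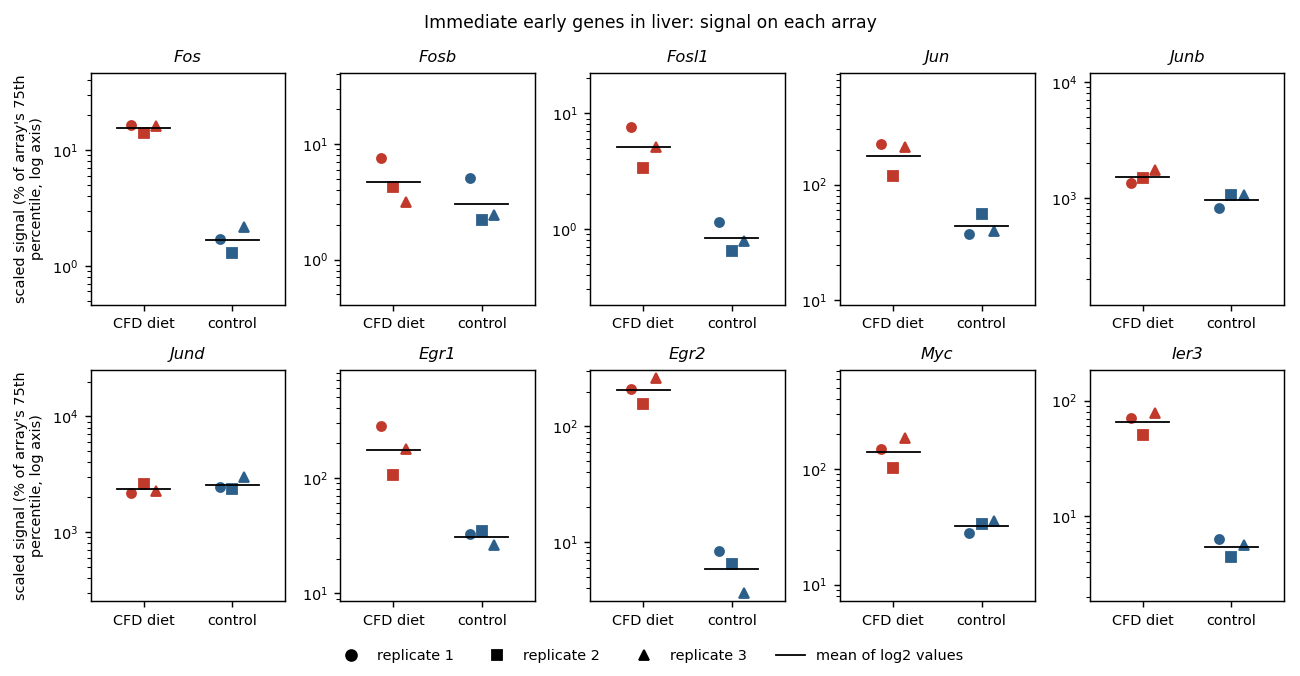
Scaled signal of the probe used for each gene on each array, in percent of the array's 75th percentile on a log axis, with CFD diet left and control right; marker shapes give the replicate number and bars the mean of the log2 values. Every panel spans the same range of folds. The groups are apart for 8 genes and overlap for Fosb and Jund.

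The promoters of 3 of these genes are printed because their letters hold elements through which immediate early genes are known to be induced. RefSeq windows (mouse assembly GRCm38.p6) of 7 of the 10 genes were used, and the 250 bases before each start are considered. Egr2 has 5 annotated starts, 1 of which is shown at chr10:67537619-67537868 on the plus strand. It was chosen as the first of those with the most motif matches. The Fos window is chr12:85473640-85473889 on the plus strand, and the Jun window is chr4:95052223-95052472 on the minus strand. Capitals mark, 5′ to 3′, the CArG box (the serum response factor element) and the reverse complement of the CRE core TGACGT in Egr2, the CRE core in Fos, and the AP-1-like sequence TGACNTCA in Jun.
Egr2: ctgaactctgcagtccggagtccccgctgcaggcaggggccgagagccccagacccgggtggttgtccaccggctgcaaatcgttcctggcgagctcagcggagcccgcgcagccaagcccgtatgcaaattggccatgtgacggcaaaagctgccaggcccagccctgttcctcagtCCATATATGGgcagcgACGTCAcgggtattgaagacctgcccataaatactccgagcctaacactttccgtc
Fos: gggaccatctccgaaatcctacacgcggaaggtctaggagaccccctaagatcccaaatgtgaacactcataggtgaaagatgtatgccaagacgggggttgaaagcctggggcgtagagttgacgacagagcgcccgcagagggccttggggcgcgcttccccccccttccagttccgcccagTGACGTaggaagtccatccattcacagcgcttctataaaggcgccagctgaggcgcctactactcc
Jun: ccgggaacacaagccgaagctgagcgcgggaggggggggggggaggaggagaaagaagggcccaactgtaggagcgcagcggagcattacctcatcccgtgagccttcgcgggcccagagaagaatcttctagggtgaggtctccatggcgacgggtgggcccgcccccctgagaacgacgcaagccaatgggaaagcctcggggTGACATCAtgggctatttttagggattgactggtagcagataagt
The CArG box of Egr2 lay at -72 to -63 from the start chosen for printing and its CRE core at -56 to -51. The CRE core of Fos lay at -66 to -61, and the TGACNTCA match of Jun, the letters bound by JUN and ATF2 dimers, at -45 to -38. Both strands were searched, and TGACNTCA contains TGACGT where its N is G. Of 32851 windows of this length in the table, 1.47% held a CArG box, 6.47% TGACGT and 7.49% TGACNTCA. Of the 7 genes, 1 had a CArG box, 2 had TGACGT and 1 had TGACNTCA. The shares are per window, whereas Egr2 was searched before all 5 of its starts. The EGR motif GCGNGGGCG, in 4.7% of windows, occurred at -50 to -42 of Fosb, and the E-box CACGTG, in 6.02%, before another start of Egr2. None of the 7 genes held the AP-1 motif TGANTCA (6.75% of windows) or the kappaB-type motif (1.41%). These are letter matches and not bound sites.

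Fos encodes the prototype FOS protein, which cannot pair with itself and joins a JUN protein. Its probe, at chr12:83478431-83478490 on the plus strand in the files' build mm7, gave scaled signals of 16.4%, 13.9% and 16.0% in CFD diet livers, against 1.70%, 1.30% and 2.16% in control livers. All CFD diet values lay above all control values, and the 3 CFD diet livers were close together. The probe was well above background on every CFD diet array and on 1 of 3 control arrays. The fitted change was 9.17-fold (95% interval 6.56 to 12.8; log2 3.20 ± 0.20, limma adjusted p = 0.00012). Under normexp the call was kept at the smaller log2 change given above.

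Fosl1 encodes FRA-1, a FOS family protein without the strong activation domain of FOS that is known as a target of AP-1 itself. At chr19:5350302-5350361 (mm7, plus strand), its scaled signals were 7.64%, 3.39% and 5.13% in CFD diet livers, against 1.15%, 0.643% and 0.788% in control livers. The groups did not overlap, but no control array was well above background, so the control values are not exact. Set against the lowest signal of any probe that was well above background on each control array, Fosl1 was at least 2.17-fold higher in CFD diet livers. That bound holds only for this limit, since the flag did not follow signal alone. On control replicate 3 an Egr2 spot at 4.51% was not flagged and 1 at 3.72% was. The limma adjusted p of 0.00147 belongs to the fitted change, which takes the dim control values as measured, and is no test of that bound. Under normexp the log2 change was 0.45 and the call was lost (limma adjusted p = 0.0743).

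Fosb, the FOS family member whose splice form delta-FosB accumulates under repeated stimulation, differed less between the diets than it did within them. Its probe, at chr7:16985502-16985561 (mm7, minus strand), gave 7.51%, 4.24% and 3.14% in CFD diet livers, against 5.06%, 2.22% and 2.44% in control livers. Replicate 1 was the highest of its group in both diets, and the control value of that replicate exceeded CFD diet replicates 2 and 3. The log2 fold change was 0.62 ± 0.42 and Fosb was not called (limma adjusted p = 0.251), with a 95% interval from 0.770-fold to 3.08-fold. Replicates of the same number shared a slide, and with the slide as a block Fosb was called (limma adjusted p = 0.0356), the only one of the 10 genes whose call that block changed. Its signal stood well above background on each CFD diet array but on only 1 of the 3 control arrays.

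Jun encodes c-JUN, the AP-1 subunit that can pair with itself as well as with FOS. At chr4:94441779-94441838 (mm7, minus strand), its scaled signals were 224%, 119% and 211% in CFD diet livers, against 37.6%, 55.5% and 39.5% in control livers. CFD diet replicate 2 was the lowest of its group and control replicate 2 the highest of its own, yet the groups stayed apart. Jun rose 4.08-fold (95% interval 2.56 to 6.51; log2 2.03 ± 0.28, limma adjusted p = 0.00192).

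Junb, whose protein is a weaker activator than c-JUN and restrains it in several settings, has a pair of probes that overlap on chromosome 8 and disagree. The probe used for the gene, at chr8:83563097-83563156 (mm7, minus strand), gave 1348%, 1493% and 1751% in CFD diet livers, against 813%, 1049% and 1050% in control livers, apart in all 3. The other probe, at chr8:83563059-83563118, gave 768%, 835% and 915% in CFD diet livers, against 933%, 879% and 862% in control livers, which overlap. Their log2 fold changes were 0.66 ± 0.16 (limma adjusted p = 0.0152) and -0.09 ± 0.12 (limma adjusted p = 0.566 in the fit of all probes). With the mean of both probes the log2 change was 0.28 and Junb was not called (limma adjusted p = 0.107). The call was also lost without CFD diet replicate 3 (0.56, limma adjusted p = 0.0529), on scaling to the array median (0.45, limma adjusted p = 0.09) and with no filter on dim probes (limma adjusted p = 0.0636).

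Jund, the JUN family member that is expressed steadily in resting cells, was not called. Its scaled signals at chr8:69154598-69154657 (mm7, plus strand) were 2173%, 2582% and 2277% in CFD diet livers, against 2453%, 2356% and 2971% in control livers, and the groups overlapped. The fitted change was 0.906-fold with a 95% interval of 0.716 to 1.15 (log2 -0.14 ± 0.14, limma adjusted p = 0.431), and its sign was positive under quantile normalization (0.22).

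Egr1 encodes a zinc finger factor induced through serum response elements by growth factors and injury. Its scaled signals were 282%, 106% and 177% in CFD diet livers, against 32.7%, 34.9% and 26.3% in control livers. The lowest CFD diet value, that of replicate 2, was still above every control value, while the CFD diet livers spread more widely than the controls. Egr1 rose 5.60-fold (95% interval 3.17 to 9.92; log2 2.49 ± 0.35, limma adjusted p = 0.00189).

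Egr2, also named Krox20, is known from hindbrain patterning, myelination and lymphocyte and macrophage activation. At chr10:67145376-67145435 (mm7, plus strand), its scaled signals were 210.0%, 156% and 264% in CFD diet livers, against 8.37%, 6.52% and 3.64% in control livers. The probe was well above background on all CFD diet arrays and on 2 of 3 control arrays, and control replicate 3 was the lowest. The fitted rise of 35.2-fold (95% interval 20.1 to 61.6; log2 5.14 ± 0.34, limma adjusted p = 0.000133) ranked 51 of 15909 genes by log2 fold change. Under normexp the log2 change was 3.36, with the call kept. The CArG box and the CRE core printed above stand before the start chosen for printing, and not all 5 annotated starts had both elements.

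Myc encodes the basic helix-loop-helix leucine zipper factor c-MYC. The probe used, at chr15:62064256-62064316 (mm7, plus strand), gave 149%, 102% and 186% in CFD diet livers, against 28.2%, 33.8% and 35.2% in control livers. All 3 CFD diet values were above the controls, with replicate 2 again the lowest of them. Myc rose 4.38-fold (95% interval 2.97 to 6.45; log2 2.13 ± 0.23, limma adjusted p = 0.000781). The other probes of Myc, at chr15:62064157-62064216 and chr15:62063665-62063724, had log2 fold changes of 2.16 ± 0.29 and 1.65 ± 0.28 (limma adjusted p = 0.0016 and 0.00386 in the fit of all probes). All 3 probes were called higher, where 22.1% of all tested probes were.

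Ier3, also named IEX-1, encodes a short-lived protein induced by growth factors, radiation and NF-kappaB that affects cell death. At chr17:33924245-33924304 (mm7, plus strand), its scaled signals were 71.5%, 50.3% and 78.1% in CFD diet livers, against 6.42%, 4.41% and 5.61% in control livers. The groups were far apart, and all 6 arrays were well above background. Ier3 rose 12.1-fold (95% interval 8.43 to 17.4; log2 3.60 ± 0.22, limma adjusted p = 0.000111), or by 1.85 on the log2 scale under normexp.

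**Figure D2:**
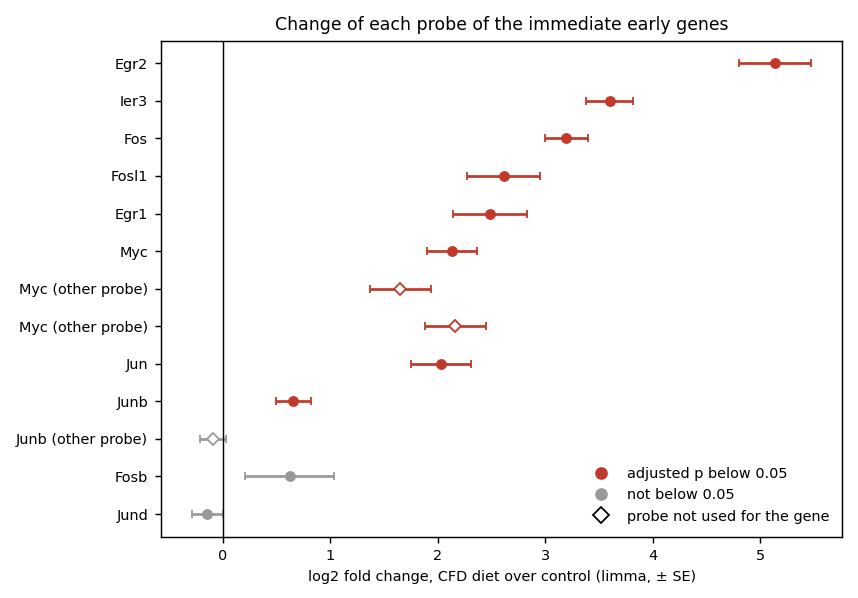
Log2 fold change, CFD diet over control, of all 13 probes in the limma fit of all tested probes, with bars of ± SE; filled circles are the probes used for their gene and open diamonds the others. The 3 Myc probes lie between 1.65 and 2.16, while the Junb probes lie at 0.66 and -0.09.

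The changes of members of 1 family were set against each other within arrays. The gene with the larger fitted change stands first in each pair, so the direction of a difference follows from that order. No other gene pairs were compared. The log2 difference Jun minus Junb within an array was higher by 1.37 in CFD diet livers than in control livers, Jun minus Jund by 2.17, Fos minus Fosb by 2.57 and Egr2 minus Egr1 by 2.65. In each of these 4 pairs every CFD diet array lay above every control array. The exact two-sided permutation p was 0.1 for each, the smallest that 3 against 3 arrays allow, and 0.1 after Benjamini-Hochberg adjustment over the 4 pairs. That test therefore could not pass 0.05 with 3 arrays a diet, and no other test was run on these pairs. Under normexp the difference was 0.75 for Fos minus Fosb and 1.34 for Egr2 minus Egr1, whose control signals were partly near background. The Junb pair rests on the one Junb probe that was called.

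The probes of Fos, Jun, Egr2 and Myc were printed 10 times on each array, which gives the error of a spot. For Fos the coefficient of variation among repeat spots was 4.64% to 6.17% on CFD diet arrays and 23.3% to 36.2% on control arrays. Egr2 had 3.94% to 5.76% on CFD diet arrays, against 8.66% to 21.9% on control arrays. Jun (3.17% to 4.65% on CFD diet arrays, 3.91% to 9.41% on control arrays) and Myc (3.13% to 4.90%, 4.41% to 6.26%) were measured tightly in both groups. Of these genes, Fos and Egr2 had the widest scatter among control spots.

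**Figure D3:**
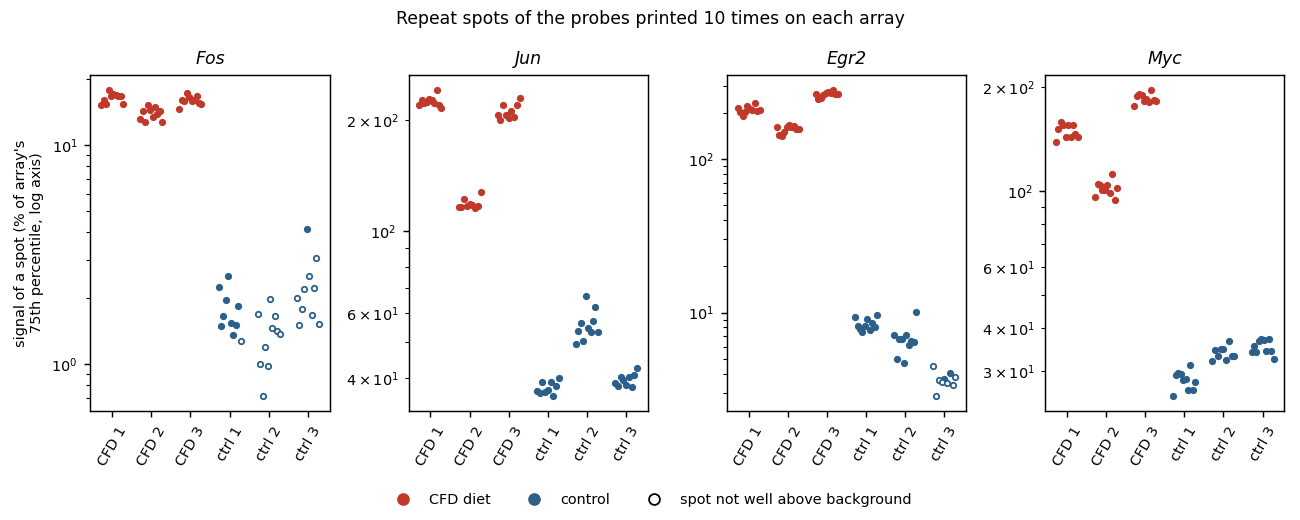
Signal of each repeat spot of the Fos, Jun, Egr2 and Myc probes, in percent of the array's 75th percentile on a log axis, for the 3 CFD diet arrays (left) and the 3 control arrays (right); open points were not well above background. The spots of an array stay close together beside the gap between diets, with the widest scatter in the control spots of Fos.

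Each of the 3 slides carried 1 CFD diet and 1 control array, so the diets can also be compared slide by slide. The 8 called genes were higher in the CFD diet liver on every slide. Egr2 differed by 4.65, 4.58 and 6.18 (log2) on slides 1, 2 and 3, Ier3 by 3.48, 3.51 and 3.80, and Fos by 3.27, 3.43 and 2.89. Junb differed by 0.73, 0.51 and 0.74. The larger Egr2 difference of slide 3 is set against a control array on which that probe was not well above background. The same holds for the Fos differences of slides 2 and 3. Fosl1, dim on every control array, differed by 2.73, 2.40 and 2.70 in the signals as measured, values that are no exact differences.

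For Jun, Egr1 and Myc slide 2 stood apart from the others. Jun differed by 2.58 on slide 1, 1.1 on slide 2 and 2.41 on slide 3, Egr1 by 3.11, 1.60 and 2.75, and Myc by 2.40, 1.59 and 2.40. For 6 of the 8 called genes the smallest difference was that of slide 2, which was so for 45.6% of all genes called higher. CFD diet replicate 2 had the lowest value of its group in 7 of the 8, against 54.9% of all genes called higher. That array also had the fewest probes well above background of its group, 23585 against 29044 and 25090 on CFD diet replicates 1 and 3, and its part in the smaller differences was not tested. Fosb differed by 0.57, 0.94 and 0.36, with its probe not well above background on the control arrays of slides 2 and 3. Jund differed by -0.18, 0.13 and -0.38. With the slide as a block, 9 of the 10 genes were called higher, beside 22.2% of all tested genes.

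**Figure D4:**
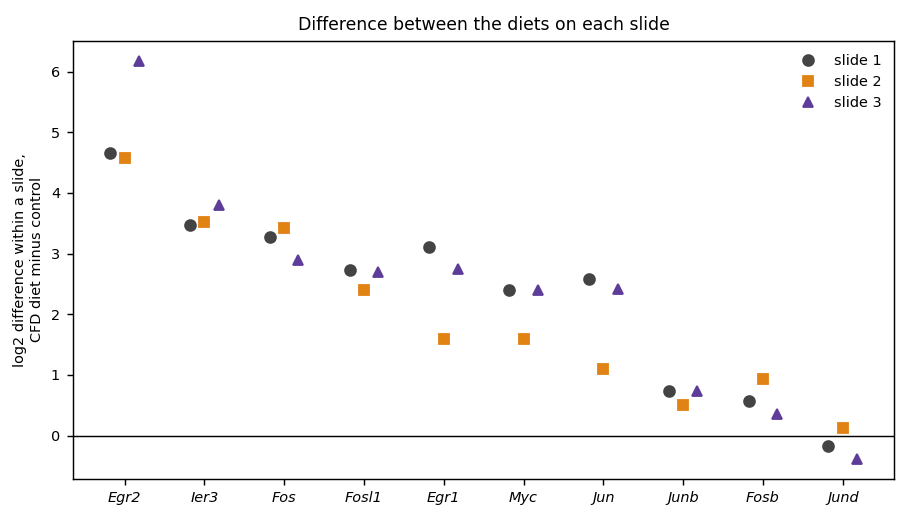
Log2 difference between the CFD diet and the control array of each slide, for each gene. Points of 8 genes lie above 0 on every slide by at least 0.51, those of Fosb by at least 0.36, and those of Jund lie on both sides of 0; slide 2 is lowest for Jun, Egr1 and Myc.

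Among 22 AP-1 partners and other leucine zipper genes, 9 were called higher (40.9%), 3 lower (13.6%) and 10 not, with a median log2 change of 0.23. Of all tested genes, 23.7% were called higher and 27.4% lower. Atf3, a stress-induced factor that pairs with JUN proteins, had 625%, 452% and 818% in CFD diet livers, against 24.1%, 23.2% and 32.5% in control livers, with no overlap. It rose by 4.55 ± 0.25 on the log2 scale (limma adjusted p = 9.35e-05). Fosl2, which encodes the FOS family protein FRA-2, had 24.3%, 13.3% and 23.8% in CFD diet livers, against 7.34%, 8.32% and 7.67% in control livers, and rose by 1.35 ± 0.25 (limma adjusted p = 0.00494), or 0.60 under normexp. Batf, a JUN partner of immune cells, rose by 1.47 ± 0.18, and Atf5 by 1.41 ± 0.18. Crem (-0.78 ± 0.20) and Cebpb (-0.66 ± 0.15) fell. The call of Cebpb was lost under quantile normalization (-0.28) and that of Crem without CFD diet replicate 1 or 3 (limma adjusted p = 0.0547 and 0.0561). Maff was not called (0.44 ± 0.22, limma adjusted p = 0.141).

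Of 38 other immediate early genes 33 were tested, and 15 were called higher, 5 lower and 13 not, with a median of 0.49. Of the 33 tested, 45.5% were called higher and 15.2% lower, beside 23.7% and 27.4% of all tested genes. Klf6, a zinc finger factor of injured liver, rose by 2.78 ± 0.20, and its CFD diet values of 1363%, 933% and 1516% lay well above the control values of 179%, 187% and 176%. The growth arrest gene Gadd45a rose by 1.98 ± 0.18 and Ccn2, which encodes connective tissue growth factor, by 1.95 ± 0.14. Lower were Nr4a2 (-1.42 ± 0.33), an orphan nuclear receptor gene, Nfil3 (-0.67 ± 0.16) and Zfp36 (-0.67 ± 0.18), whose protein promotes the decay of cytokine mRNAs. The call of Nfil3 was lost without control replicate 3 (limma adjusted p = 0.0582), and that of Zfp36 without control replicate 1 or 3 or CFD diet replicate 1 or 3 (limma adjusted p from 0.0527 to 0.0677). For Nr4a2 the change was -0.76 under normexp. Not every classical immediate early gene was called: Ier2 had 274%, 238% and 239% in CFD diet livers, against 213%, 259% and 228% in control livers (0.10 ± 0.13, limma adjusted p = 0.539), with the opposite sign on scaling to the array median (-0.10) and with the mean of its probes (-0.16). Nr4a1 also missed the threshold (0.68 ± 0.33, limma adjusted p = 0.123). Egr3, Egr4, Nr4a3, Elk1 and Nab2 were too dim to be tested.

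Genes of the MAP kinase cascades, which carry signals to these promoters, were called in both directions: of 31 tested, 9 were higher (29.0%), 7 lower (22.6%) and 15 not called, with a median of 0.01. Those shares are near the 23.7% and 27.4% of all tested genes. Mapk13, which encodes p38 delta, rose by 2.57 ± 0.23 (1.60 under normexp), and the phosphatase genes Dusp2 and Dusp10 by 1.72 ± 0.22 and 1.51 ± 0.21. Map2k5 (-1.14 ± 0.16) and Map3k5 (-0.93 ± 0.18), which encodes the stress kinase ASK1, fell. Dusp1, itself an immediate early gene, was not called (-0.42 ± 0.17, limma adjusted p = 0.0738), but was without control replicate 1 (-0.56, limma adjusted p = 0.0317) and on scaling to the array median (-0.62, limma adjusted p = 0.0331).

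The list of the MYC and MAX network leaves out Myc itself, which was called higher. Of its 17 tested genes, 0 were called higher by limma (1 at an unadjusted p under 0.05) and 7 lower (9 unadjusted), with a median of -0.35. The 7 called lower are 41.2% of the list, and 27.4% of all tested genes were called lower and 23.7% higher. Mlxipl, which encodes the carbohydrate response factor ChREBP, had 901%, 1484% and 865% in CFD diet livers, against 2483%, 2731% and 2788% in control livers. It fell by 1.34 ± 0.22 on the log2 scale (limma adjusted p = 0.00353), and its other probe changed by -1.43 ± 0.21. Mycn fell (-1.68 ± 0.38), a call lost under normexp (-0.50, limma adjusted p = 0.156), and so did Mxi1 (-0.55 ± 0.14), which encodes a MAX-binding repressor. The Mxi1 call was lost without control replicate 3 or CFD diet replicate 3 (limma adjusted p = 0.0694 and 0.0552). Mxd1, another such repressor gene, was called lower (-0.49 ± 0.15, limma adjusted p = 0.0352) but not with the slide as a block (limma adjusted p = 0.0657), nor on leaving out any array other than control replicate 2 (limma adjusted p from 0.0514 to 0.112), and its other probe gave 0.08 ± 0.21. Max itself missed the threshold (0.42 ± 0.15, limma adjusted p = 0.0532) and was called without CFD diet replicate 2 (0.51, limma adjusted p = 0.0284). With the block 4 genes were called lower instead of 7.

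Of 28 MYC target genes, 6 were called higher (21.4%), 5 lower (17.9%) and 17 not, with a median of 0.15. Both shares are below those of all tested genes, 23.7% higher and 27.4% lower. Odc1, which encodes the first enzyme of polyamine synthesis, gave 7977%, 8126% and 8815% in CFD diet livers, against 2896%, 2962% and 3207% in control livers, and rose by 1.46 ± 0.11 (limma adjusted p = 0.000231) with all 3 probes between 1.43 and 1.46. Srm, which encodes spermidine synthase, rose by 0.60 ± 0.14, and the ribosome assembly gene Pes1 by 0.46 ± 0.11 with another probe at 1.99. Pa2g4 (-0.71 ± 0.13), Hspd1 (-0.57 ± 0.14), which encodes a mitochondrial chaperone, and Polr3g (-0.46 ± 0.13) fell. A further probe of Pa2g4 was not called (-0.12 ± 0.14), and the other probes of Polr3g gave -0.79 ± 0.24, called lower, and 0.33 ± 0.13, not called. Without control replicate 3 the calls of Hspd1 (limma adjusted p = 0.0538) and Polr3g (0.0866) were lost, as was that of Polr3g without control replicate 1 (0.086) or CFD diet replicate 3 (0.0744). Under quantile normalization Hspd1 was not called (-0.09). Pes1 was not called without control replicate 1 (limma adjusted p = 0.0522) or CFD diet replicate 3 (0.0518). On scaling to the array median Srm (0.39) and Pes1 (0.26) were not called.

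AP-1 and EGR target genes stood higher almost throughout: of 28 listed 26 were tested, 25 were called higher (96.2%) and 1 lower (3.85%). Of all tested genes, 23.7% were called higher and 27.4% lower. The median of the list was 2.11, or 1.82 with 4 genes at the bound that dim control signals allow. Plaur, which encodes the urokinase receptor, had 184%, 166% and 246% in CFD diet livers, against 11.3%, 11.0% and 10.2% in control livers, and rose by 4.18 ± 0.17 (limma adjusted p = 5.53e-05), or 2.89 under normexp. Spp1, which encodes osteopontin, rose by 3.99 ± 0.21. Vegfa, the endothelial growth factor gene, was the one called lower (-0.93 ± 0.15). Spp1 is also a marker of bile duct cells, and many genes of this list are products of macrophages and fibroblasts.

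**Figure D5:**
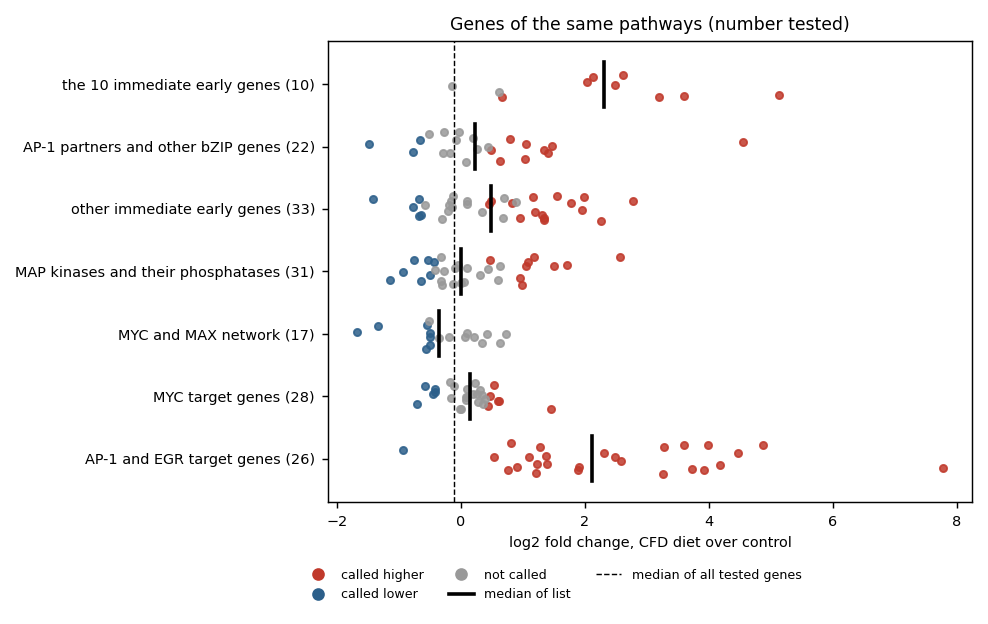
Log2 fold change, CFD diet over control, of each tested gene in the 10 immediate early genes and 6 lists of related genes, with solid bars at list medians and the dashed line at the median of all tested genes (-0.11). The AP-1 and EGR target genes have a median of 2.11 and the MYC and MAX network one of -0.35.

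Markers of other cells also differed between the diets. Whether they followed these genes from array to array was not tested. Their counts stand beside 23.7% of all tested genes called higher and 27.4% called lower. Of 8 macrophage markers 7 were called higher and 1 lower, with a summed scaled signal of 30271% to 43567% in CFD diet livers against 9716% to 14809% in control livers. The summed signal of 4 tested neutrophil markers was 1869% to 2484% in CFD diet livers and 135% to 232% in control livers, all 4 being called higher. For stellate cells 8 of 8 markers were higher (18186% to 21415% in CFD diet livers, 7060% to 8098% in control livers). Bile duct markers were higher for 6 of 7 (8897% to 12341% in CFD diet livers, 635% to 953% in control livers), and dividing cell markers for 8 of 8 (394% to 721% in CFD diet livers, 84.1% to 111% in control livers). A sum follows its brightest probes and is no measure of the amount of a cell type. Spp1 alone made up 8436% to 11666% of the bile duct sum in CFD diet livers and 520% to 798% in control livers. Lyz2 made up 22436% to 32204% of the macrophage sum in CFD diet livers and 4988% to 7789% in control livers. For Dcn in the stellate cell sum the values were 14258% to 16399% and 5928% to 6776%. For S100a9 in the neutrophil sum they were 1712% to 2264% and 115% to 203%. The part of these cells in the changes of the immediate early genes was not tested.

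Hepatocyte markers fell for 5 of 7, with sums of 118265% to 195197% in CFD diet livers against 202753% to 254246% in control livers. Alb alone made up 57944% to 104248% of these sums in CFD diet livers and 80870% to 118218% in control livers. Lymphocyte markers were lower for 2 of 7, a share (28.6%) near the 27.4% of all tested genes called lower. Their sums were 63.1% to 93.9% in CFD diet livers and 89.6% to 119% in control livers. Endothelial markers were higher for 1 and lower for 3 of 7 (2372% to 3105% in CFD diet livers, 3712% to 4069% in control livers). Erythroid markers were lower for 1 of 2 (7906% to 14416% in CFD diet livers, 14569% to 20804% in control livers). Among first markers, Cd68 (2.58 ± 0.17), S100a8 (3.85 ± 0.21), Col1a1 (3.64 ± 0.25), Krt7 (3.25 ± 0.47) and Mki67 (2.46 ± 0.23) rose on the log2 scale. Alb (-0.49 ± 0.26), Cd3e (-0.59 ± 0.23), Pecam1 (-0.27 ± 0.13) and Hba-a1 (-0.64 ± 0.28) were not called, but with the slide as a block Cd3e and Hba-a1 were called lower (limma adjusted p = 0.0322 and 0.0271). None of these first markers was at 0, each being well above background on all 6 arrays.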

How the data were processed

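The deposited scanner files hold an intensity for each spot, the processed signal, from which Agilent Feature Extraction had subtracted background. The submitters' processing notes name version 10.7, and the file headers give 10.5.1.1 for the step that places the grid. Probe coordinates are those of the files (mm7), and exons or UTRs were not assigned here. The authors' deposited value table of intensity was used as an alternative only: each column matched, at a rank correlation of 1, another replicate of its own group, so replicates are numbered by the scanner files.

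Control and outlier spots were dropped, spots of a probe averaged, and log2 signals set relative to each array's 75th percentile (404.1 to 670.2 on CFD diet arrays, 365 to 438.8 on control arrays). Of 41174 probes, 21689 to 29044 an array were well above background, no spot was saturated, and arrays correlated at 0.982 to 0.990 within the CFD diet, 0.990 to 0.993 within control and 0.913 to 0.951 between them. The number of arrays limits the precision. Each gene was read from 1 probe, the tested one of highest mean signal. Fits used limma 3.58.1 (lmFit and eBayes) in R 4.3.3, with Benjamini-Hochberg adjustment over 15909 genes or 23482 probes, and were tested on simulated data. Names were updated through RefSeq (GRCm38.p6), 22951 probes by accession.

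Same-numbered replicates shared a slide and scan, per the file headers. Their deviations from the group means correlated at 0.17, -0.07 and -0.01 for numbers 1, 2 and 3.

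Named beside the 10 genes were up to 3 genes a list and direction with the lowest adjusted p, a set named whatever their result, and the first marker of each cell type. Some genes that this rule names are not reported here, though the counts include them. Genes and lists were chosen with earlier results of these data known. Alternatives were normexp (offset 50), quantile or median scaling, other probe filters, the mean of a gene's probes, the slide as a block, trended robust eBayes, the value table, and leaving out each array.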

Additional observations from a re-analysis of the deposited data

How the results depend on the processing

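The precision is limited by 3 arrays a diet and, for Fos, Fosb, Fosl1 and Egr2, by control signals near background. Of 146 values of the 10 genes under the other settings, 139 kept their direction and side of the threshold, 5 were no longer called (4 for Junb, 1 for Fosl1), 1 became called (Fosb, with the replicate block) and 1 changed sign (Jund under quantile normalization, 0.22). The log2 change over all settings spanned 3.36 to 5.40 for Egr2, 0.93 to 3.38 for Fos, 1.85 to 3.79 for Ier3, 0.45 to 3.01 for Fosl1, 2.02 to 2.85 for Egr1, 1.73 to 2.37 for Myc and 1.73 to 2.32 for Jun. Among the other named genes, Ier2 changed sign on scaling to the array median (-0.10) and with the mean of its probes (-0.16).

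The count of the 10 genes called higher, 8, was 5 when a probe had to be well above background on each of the 6 arrays, since 4 genes then had no value, and 7 to 8 on leaving out an array. The AP-1 and EGR targets called higher numbered 16 with that filter, in place of 25. Without a filter on dim probes, 2459 genes were called lower in all (1 among leucine zipper genes, 1 among other immediate early genes, 3 among MAP kinase genes, 2 in the MYC network, and 1 higher and 1 lower among MYC targets). Scaling to the array median shifted the median of all genes to -0.31 and the calls to 2934 higher and 5814 lower, against 3776 higher and 4353 lower in the main setting, with 5 leucine zipper and 11 MAP kinase genes lower and 1 MYC target higher. Without the dim-probe filter 3040 genes were higher. Under quantile normalization 10 MYC targets were higher and 3 lower, and 2 MYC network genes were higher, as was 1 under normexp, with the filter on all 6 arrays, with trended robust eBayes and with the mean of a gene's probes.

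With the replicate block, the paired fit on the slide, 4 MYC network genes and 3 MYC targets were lower; it otherwise changed, among named genes, the calls of Fosb, Mxd1 and the markers Cd3e and Hba-a1. On leaving out 1 array, genes called lower ranged from 2770 to 4954 in all, 1 to 4 among other immediate early genes, 3 to 6 among MAP kinase genes, 2 to 8 in the MYC network (0 to 3 higher) and 1 to 4 among MYC targets (2 to 8 higher). The lowest count of genes called lower in all came without control replicate 3 (2770). Without the dim-probe filter the calls of Cebpb, Crem, Nfil3, Zfp36, Mxi1, Mxd1, Srm, Pes1, Hspd1 and Polr3g were lost (limma adjusted p from 0.0512 for Cebpb to 0.119 for Mxd1), as were those of Zfp36 (0.0523) and Polr3g (0.0645) with the mean of their probes. Max was called under 5 settings (limma adjusted p from 0.0235 to 0.0475). The cause of these shifts was not tested.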
